A study of Arabidopsis thaliana with 134 samples.

Results

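The genes described are 40 nuclear genes of Arabidopsis thaliana that encode the light-harvesting antenna and the photosystem subunits, of 28775 genes in the expression table. They were chosen by gene identity and not by a cut-off on measured values, though with earlier results of these data known. The set holds the LHCA and LHCB antenna genes, PSBS, and nuclear subunits of photosystem I and photosystem II. Small photosystem II subunits such as PSBW, PSBX and PSBY are not in it and are counted below among other photosynthesis genes. All 40 had a mean of at least 1 TPM (transcript abundance scaled for gene length and library depth, with the same total in every library) over the lines and were tested. The gene numbers and RefSeq symbols were matched for all 40.

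RNA-seq was made from whole seedlings of 65 recombinant inbred lines of the accessions Tnz-1 and Ws-2, each line with 1 library after 2 h of extended light and 1 library from the dark, and of both parents with 1 library per condition. A recombinant inbred line is an inbred descendant that carries a fixed mixture of both parental genomes. The labels give a line as WT and a number, which was taken as a line of this cross since the series text speaks of parents and their inbred lines alone. The groups, in this notation, were 65 lines in extended light, 65 lines in the dark, Tnz-1 in light and in dark, and Ws-2 in light and in dark. All seedlings were 12 days old, grown on medium with 3% sucrose in clusters of about 50 seeds after 4 days of stratification, at 22 °C with 8 h of light and 16 h of dark, and were harvested at zeitgeber time (ZT, hours after lights-on) 10 h. Lights went off at ZT 8 h for the dark plants and stayed on for the light plants. The 2 sets stood in different cabinets, so light and cabinet cannot be told apart. No line had more than 1 library per condition, and a library came from whole seedlings, so fewer cells of a type and less RNA per cell cannot be told apart.

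In photosynthesis, photosystem II splits water at its lumenal oxygen-evolving complex and photosystem I reduces ferredoxin on the stromal side. The LHCB proteins form the antenna of photosystem II, as trimers (LHCB1, LHCB2 and LHCB3) and as the monomeric CP29 (LHCB4), CP26 (LHCB5) and CP24 (LHCB6), and the LHCA proteins form the antenna of photosystem I. PSBS carries no antenna function of that kind and turns on the release of excess energy as heat when the lumen becomes acidic. Transcripts of LHCB1 genes are textbook examples of both light and circadian control, with a peak in the day.

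No read depth can be given, since the table holds TPM. The number of genes listed at 0 was 8603 ± 434 in light and 8743 ± 392 in dark (SD, n = 65 each). Summed transcripts of 10 root markers were 226 ± 102 TPM in light and 253 ± 104 TPM in dark, and 3 of the 10 were lower in light. Summed transcripts of 8 seed storage protein genes ranged from 0.45 to 7654 TPM in light and from 1.42 to 15370 TPM in dark, and 0 of the 8 were called by limma, at an adjusted or an unadjusted p under 0.05. Of 5 green tissue markers that are no photosystem genes, 4 were higher and 1 was lower in light, with a sum of 36557 ± 4036 TPM in light and 33916 ± 3990 TPM in dark. Their part in the results below was not tested. Between lines, 9 pairs had equal marker calls at more than 95% of the marker genes used below, so lines are not all independent genotypes.

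The region before the gene is shown for 6 members on which the results turn and whose 250 bases before the annotated gene start overlap no other annotated gene. They are the strongest increases in light (PSBS, LHCB4.3) and an LHCB2 gene with 2 searched motifs (LHCB2.3). The others are 2 neighbours of the LHCB1 cluster that behaved differently (LHCB1.1, LHCB1.3), and a photosystem I gene (PSAD1). PSAD1 was low in lines whose neighbouring genes were expressed as in Tnz-1, as described below. Sequences are from the RefSeq assembly TAIR10.1, which is of the accession Col-0 and not of Tnz-1 or Ws-2, read 5′ to 3′ toward the gene. Capitals mark a match to a searched motif, and PSBS and LHCB4.3 had none.
PSBS, chr1:16869971-16870220, plus strand: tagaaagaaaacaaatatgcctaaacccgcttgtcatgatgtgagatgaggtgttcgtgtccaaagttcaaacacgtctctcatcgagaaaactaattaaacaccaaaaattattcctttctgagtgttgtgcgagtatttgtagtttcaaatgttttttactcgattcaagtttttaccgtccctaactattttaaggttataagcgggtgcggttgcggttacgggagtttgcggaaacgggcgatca
LHCB4.3, chr2:16745378-16745627, plus strand: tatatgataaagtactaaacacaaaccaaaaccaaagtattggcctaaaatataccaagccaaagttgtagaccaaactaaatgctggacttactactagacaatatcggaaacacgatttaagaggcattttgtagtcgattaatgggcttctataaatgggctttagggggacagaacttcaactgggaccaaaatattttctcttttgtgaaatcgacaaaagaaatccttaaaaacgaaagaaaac
LHCB2.3, chr3:10255656-10255905, plus strand: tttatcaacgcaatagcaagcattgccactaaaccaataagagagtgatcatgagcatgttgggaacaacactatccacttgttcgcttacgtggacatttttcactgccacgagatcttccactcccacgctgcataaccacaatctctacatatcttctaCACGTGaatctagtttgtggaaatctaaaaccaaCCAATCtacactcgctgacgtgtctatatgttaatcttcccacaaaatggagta
LHCB1.1, chr1:10475970-10476219, minus strand: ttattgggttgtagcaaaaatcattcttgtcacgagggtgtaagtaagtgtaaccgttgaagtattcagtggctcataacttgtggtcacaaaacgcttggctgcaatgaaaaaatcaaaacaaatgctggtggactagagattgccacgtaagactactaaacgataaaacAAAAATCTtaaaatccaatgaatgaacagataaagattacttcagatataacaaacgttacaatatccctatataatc
LHCB1.3, chr1:10477635-10477884, plus strand: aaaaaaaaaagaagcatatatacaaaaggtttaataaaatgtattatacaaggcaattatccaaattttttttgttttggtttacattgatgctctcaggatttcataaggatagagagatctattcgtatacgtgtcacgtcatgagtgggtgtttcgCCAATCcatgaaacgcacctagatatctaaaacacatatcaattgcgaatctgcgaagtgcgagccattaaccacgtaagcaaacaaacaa
PSAD1, chr4:1230165-1230414, minus strand: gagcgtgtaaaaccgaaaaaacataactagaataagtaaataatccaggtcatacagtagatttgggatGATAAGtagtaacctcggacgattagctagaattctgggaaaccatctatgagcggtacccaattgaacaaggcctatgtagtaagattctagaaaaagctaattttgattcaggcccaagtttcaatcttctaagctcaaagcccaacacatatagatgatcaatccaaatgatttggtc

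Of the 5 motifs searched on both strands in all 40 such windows, the G-box (CACGTG, bound by bHLH and bZIP factors such as PIFs and HY5) was found before 9 members, 22.5%, against 6.49% of all 27437 windows before protein-coding genes. The I-box (GATAAG) was before 9 members, 22.5%, against 12.3% of all. CCAATC, a sequence bound by GLK factors, was before 11 members, 27.5%, against 10.2% of all. The CCA1-binding site (AAAAATCT) was before 5 members, 12.5%, against 6.69% of all, and the evening element (AAATATCT) was before LHCA5 alone, 2.5%, against 4.79%. None of these motifs contains another, although a window may hold several. Of the 9 members that rose by at least 0.5 log2 units in light, 4 held a G-box: LHCB2.3, LHCB6, LHCB7 and PSAH2. LHCB6 had its G-box 124 bases and an I-box 86 bases before the gene start, and PSAH2 had G-boxes at 67 and 12 bases and an I-box at 84 bases. A match is a description of letters and shows no binding.

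Extended light was followed by higher transcripts of 22 of the 40 members and lower transcripts of 7, while 11 did not pass the test. These are shares of 55% higher and 17.5% lower, against 36.1% and 25.5% of all 18111 genes tested, by limma at an adjusted p under 0.05 on log2(TPM + 1). Most changes were small: 9 members were higher and 1 was lower by at least 0.5 log2 units, against 10.7% and 7.89% of all genes. The change reached 1 log2 unit in 3 members (PSBS and LHCB4.3 higher, LHCB1.1 lower), against 5.48% of all genes. The median log2 change was 0.19 over the members and 0.05 over all genes. Together the 40 genes held 6.18% ± 1.02 of all TPM in light and 5.45% ± 0.692 in dark (SD, n = 65 each), and their sum was higher in light in 52 of 65 lines. With the line as a block, which uses the pairing of the light and dark library of a line, 28 members were higher and 8 lower, against 44.8% and 32% of all genes. The block added LHCA5, PSAD1, PSAE1, PSAG, PSAK and PSAL to the higher members and PSAF to the lower.

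**Figure D1:**
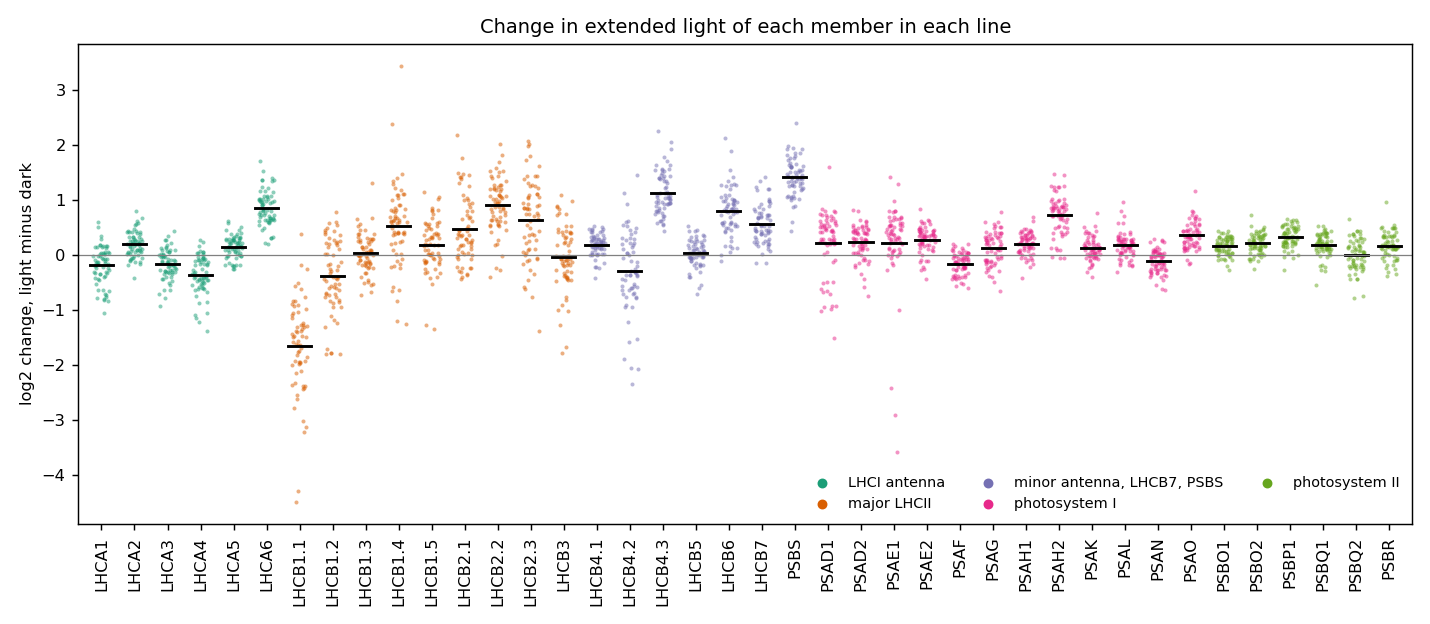
Log2 change, light minus dark, of each of the 40 members on the log2(TPM + 1) scale, with 1 point per line (65 lines), a black bar at the mean and colours for the complex. The minor antenna genes LHCB4.3 and LHCB6 and PSBS lie above 0 in nearly all lines, LHCB1.1 lies below 0 in 64 of 65 lines, and photosystem II subunits lie close to 0.

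PSBS (AT1G44575) showed the strongest increase. It had 1246 to 2260 TPM with a median of 1836 TPM in light, against 363 to 1247 TPM with a median of 672 TPM in dark. All but 1 of the 65 light libraries lay above the highest dark library, and the change was 1.42 log2 units (SE 0.0442, adjusted p 1.87e-61 by limma), upward in 65 of 65 lines. LHCB4.3 (AT2G40100), a CP29 form with a shortened C-terminal end, had 13.9 to 52 TPM with a median of 31.3 TPM in light, against 4.81 to 30.6 TPM with a median of 12.9 TPM in dark. The groups overlapped, with 35 light libraries above the highest dark one, and LHCB4.3 rose by 1.14 log2 units (SE 0.0773, adjusted p 2.45e-28 by limma) in 65 of 65 lines.

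The CP29 genes did not move as one. LHCB4.1 (AT5G01530) made up 99.2% of LHCB4 transcripts in light and 99.5% in dark and rose by 0.19 log2 units in 58 lines. LHCB4.2 (AT3G08940) was the lowest in change of the minor antenna, with 1.2 to 17.5 TPM and a median of 3.51 TPM in light, against 0.77 to 13.1 TPM and a median of 4.78 TPM in dark. It fell by 0.29 log2 units (SE 0.105, adjusted p 0.0109 by limma), and was lower in 40 of 65 lines. The LHCB4.3 share of the family was higher in light in 65 of 65 lines, at 0.694% ± 0.241 in light and 0.350% ± 0.140 in dark.

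Among the other minor antenna genes, LHCB6 (CP24, AT1G15820) rose by 0.80 log2 units in 64 of 65 lines, with 633 ± 144 TPM in light and 358 ± 64.8 TPM in dark. LHCB7 (AT1G76570), a rarely expressed LHCB-type gene, rose by 0.57 log2 units in 63 lines. LHCB5 (CP26, AT4G10340) did not pass the test, with a change of 0.03 log2 units (SE 0.158) and values of 478 to 3607 TPM in light and 479 to 3191 TPM in dark. With PSBS counted in, 5 of the 7 members of this class were higher, 1 was lower and the median change was 0.57. The summed TPM of the class was higher in light in 64 of 65 lines, at 8975 ± 1556 TPM in light and 6886 ± 1066 TPM in dark. PSBS alone was at 1836 ± 199 TPM in light and 697 ± 157 TPM in dark, a large part of that rise. CP26 was the only member of the class that did not pass the test.

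**Figure D2:**
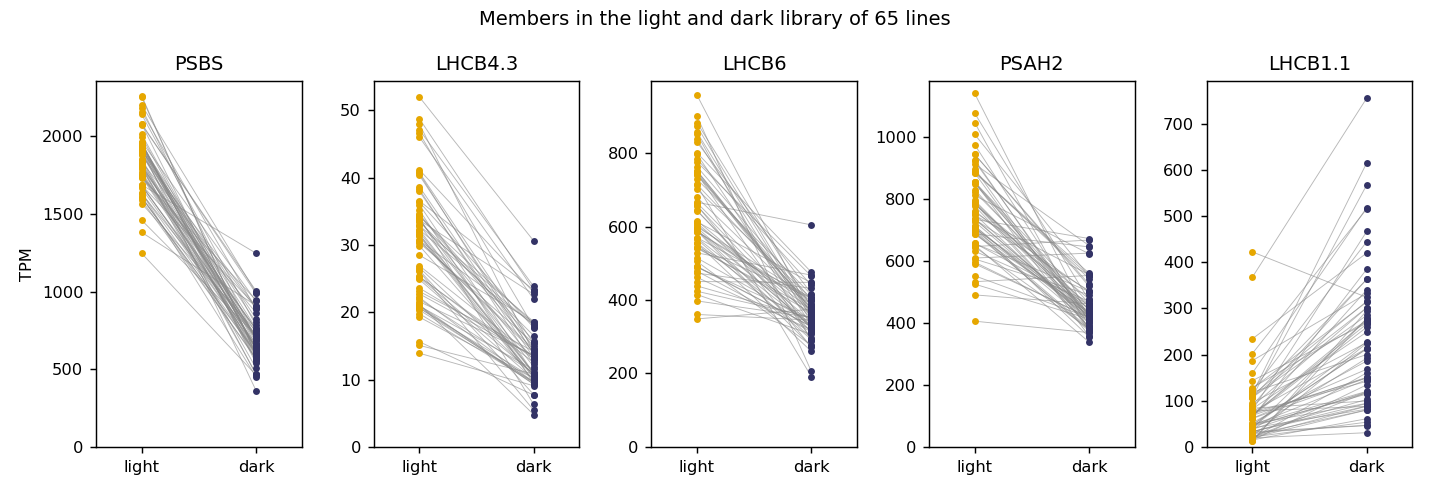
TPM of PSBS, LHCB4.3, LHCB6, PSAH2 and LHCB1.1 in the light (left) and dark (right) library of each of 65 lines, joined by a line. PSBS runs from 1246 to 2260 TPM in light and from 363 to 1247 TPM in dark, and LHCB1.1 is lower in light in all but 1 line.

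The trimeric antenna genes split. LHCB1.1 (AT1G29920) had 12.1 to 423 TPM with a median of 62.2 TPM in light, against 30.8 to 756 TPM with a median of 213 TPM in dark. The groups overlapped, with 12 light libraries below the lowest dark one, and LHCB1.1 fell by 1.66 log2 units (SE 0.183, adjusted p 9.65e-15 by limma) in 64 of 65 lines. Its neighbours on chromosome 1 changed less. LHCB1.2 (AT1G29910) was lower in 42 lines (log2 change −0.37, adjusted p 0.00154 by limma), with 969 ± 445 TPM in light and 1211 ± 457 TPM in dark. Its direction went with the line number. It rose in every line numbered 2 to 17, by 0.01 to 0.60 log2 units. In every line numbered 28 to 58 it fell, by 0.40 to 1.80 log2 units. The mean change of LHCB1.2 therefore does not describe all lines, and the cause of this split was not tested. LHCB1.3 (AT1G29930), the most abundant of the cluster, was not called, with 5821 ± 2436 TPM in light and 5549 ± 2021 TPM in dark.

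These 3 genes lie within chr1:10472280-10479114 (TAIR10.1), and their coding sequences are 95.7% to 96.4% identical, the closest of the 36 pairs compared within families. How reads shared by such copies were divided is not given in the sources used here, so single values of the cluster are less certain than their sum. Gaps counted as differences, which lowers the identity of pairs of unlike length, such as LHCB2.1 (954 bases) and LHCB2.2 (798 bases) at 77.7%. Shared reads may therefore also bear on LHCB2 genes, which was not tested. The sum of the cluster was 6869 ± 2691 TPM in light and 6995 ± 2191 TPM in dark, higher in light in 28 of 65 lines. Within it the share of LHCB1.1 was 1.34% ± 1.23 in light and 3.54% ± 2.38 in dark (SD, n = 65 each), and it was higher in light in 2 of 65 lines. The share of LHCB1.3 was 84.0% ± 6.23 in light and 78.4% ± 8.46 in dark, higher in light in 53 lines.

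On chromosome 2, LHCB1.4 rose by 0.54 log2 units in 53 lines and LHCB1.5 by 0.19 in 43 lines, a call that was lost under median-of-ratios scaling. LHCB1.4 had the widest range of changes upward, to 3.45 log2 units in 1 line. All 3 LHCB2 genes rose, from low levels. LHCB2 proteins are the antenna subunits whose phosphorylation drives state transitions, the movement of antenna between photosystems. LHCB2.2 (AT2G05070) gave the largest rise of the trimeric class, with 15.4 to 103 TPM and a median of 39.3 TPM in light, against 9.61 to 45.6 TPM and a median of 20.6 TPM in dark. The groups overlapped, and the change was 0.91 log2 units (SE 0.0891, adjusted p 2.03e-17 by limma), upward in 61 of 65 lines.

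LHCB2.3 (AT3G27690) rose by 0.65 log2 units, with 8.74 ± 4.95 TPM in light and 5.16 ± 2.83 TPM in dark. LHCB2.1 (AT2G05100) rose by 0.48 log2 units and was at 0 to 14 TPM with a median of 0.77 TPM in light, against 0 to 6.19 TPM with a median of 0.49 TPM in dark. Its levels were near the bottom of the scale, where the added 1 TPM shrinks changes. The LHCB2 sum was 54.2 ± 20.1 TPM in light and 28.9 ± 11.1 TPM in dark. LHCB3, which sits beside CP24 in part of the trimers, was not called (log2 change −0.04), with 684 ± 291 TPM in light and 694 ± 280 TPM in dark. In total 5 of 9 trimeric genes were higher, 2 lower and 2 not called.

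In the photosystem I antenna 2 genes were higher, 3 lower and 1 not called. LHCA6 (AT1G19150), which with LHCA5 (AT1G45474) links photosystem I to the NDH complex of cyclic electron flow, had 26.6 to 469 TPM with a median of 224 TPM in light, against 14.9 to 252 TPM with a median of 127 TPM in dark. The groups overlapped because lines spread widely in both conditions, yet LHCA6 rose in 65 of 65 lines, by 0.87 log2 units (SE 0.236, adjusted p 0.000764 by limma). The lowest change belonged to LHCA4 (AT3G47470), with 499 to 1889 TPM and a median of 967 TPM in light, against 746 to 1897 TPM and a median of 1236 TPM in dark. LHCA4 fell by 0.36 log2 units (SE 0.0646, adjusted p 4.95e-07 by limma) in 56 lines.

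LHCA1 and LHCA3 were also lower, by smaller amounts. LHCA1 fell by 0.19 log2 units in 44 lines, with an adjusted p of 0.0402 (limma), and LHCA3 fell by 0.16 in 47 lines. The deepest changes of LHCA1 and LHCA4 were −1.06 in line 50 and −1.38 in line 54. Both lines lie in the range of line numbers where LHCB1.2 fell throughout. LHCA2 rose by 0.20 in 52 lines. LHCA5, at 119 ± 45.8 TPM in light and 104 ± 35.5 TPM in dark, changed by 0.16 log2 units and was not called without the block (adjusted p 0.211 by limma). With the block its adjusted p was 7.4e-08 (limma), and it was higher in 50 of 65 lines. The class had a median change of 0.00, and its sum was higher in light in 29 of 65 lines.

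Of the 12 photosystem I subunits, 5 were higher, 1 was lower and 6 were not called. PSAH2 (AT1G52230), which encodes the docking subunit for mobile antenna together with PSAH1, had 406 to 1140 TPM with a median of 750.5 TPM in light, against 338 to 672 TPM with a median of 429 TPM in dark. It rose by 0.74 log2 units (SE 0.0453, adjusted p 7.81e-32 by limma) in 62 lines, with 50 of 65 light libraries above the highest dark one. PSAH1 rose by 0.21 log2 units in 56 lines. The share of PSAH2 in the pair was 30.2% ± 4.99 in light and 23% ± 3.11 in dark, higher in light in 59 lines.

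PSAO, a further antenna-docking subunit, rose by 0.36 log2 units in 62 lines. PSAD2 and PSAE2, stromal subunits around the ferredoxin site, rose by 0.23 and 0.28, with the adjusted p of PSAE2 at 0.0469 (limma), a call lost under median-of-ratios scaling. PSAF (AT1G31330), the plastocyanin-docking subunit, had the lowest change of the class at −0.15 log2 units (SE 0.0845), with 887 to 3086 TPM in light and 1091 to 4387 TPM in dark. It was not called without the block (adjusted p 0.11 by limma) and was lower in 48 of 65 lines, with an adjusted p of 1.7e-07 under the block. PSAN, on the lumenal side, fell by 0.11 log2 units in 42 lines. PSAD1, PSAE1, PSAG, PSAK and PSAL changed by 0.12 to 0.23 log2 units without a call, and the intraclass correlation of a line's libraries (the share of spread that lies between lines) was 0.89 to 0.98 in these 5.

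The 6 photosystem II subunits had the narrowest range of mean light changes of the classes, although all 6 differed between lines. PSBP1 (AT1G06680) of the oxygen-evolving complex had the highest change, with 2159 to 4212 TPM and a median of 3110 TPM in light, against 1705 to 3310 TPM and a median of 2464 TPM in dark. Its rise was 0.34 log2 units (SE 0.0332, adjusted p 3.64e-17 by limma) in 62 lines. PSBO1, PSBO2, PSBQ1 and PSBR, which also stabilise or surround the water-splitting site, rose by 0.17 to 0.21 log2 units in 50 to 57 lines, and the calls of PSBQ1 and PSBR were lost under median-of-ratios scaling. PSBQ2 (AT4G05180) had the lowest change, 0.01 log2 units (SE 0.0627), with 356 to 1094 TPM and a median of 713 TPM in light, against 376 to 1221 TPM and a median of 704.5 TPM in dark. The summed TPM of photosystem II subunits was higher in light in 58 of 65 lines, as was that of photosystem I.

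The direction was shared by most lines for some members. In 10 of 40 members (25%) at least 60 lines changed the same way, against 23.1% of all genes. LHCA6, LHCB4.3 and PSBS moved upward in every one of the 65 lines. In none of the 40 did the light and dark libraries fail to overlap, against 0.95% of all genes.

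Other nuclear photosynthesis genes, a list of 45 with 44 tested, gave 22 higher, 4 lower and 18 not called, against 36.1% higher and 25.5% lower of all genes, with a median change of 0.12 log2 units, against 0.05 for all genes. ELIP1, an early light-induced relative of the antenna proteins, had 13.6 ± 6.50 TPM in light and 2.26 ± 1.84 TPM in dark, a change of 2.2 log2 units. GLK1 (listed as GPRI1), a transcription factor for chloroplast genes, had 57.7 ± 26.3 TPM in light and 16.3 ± 14 TPM in dark, a change of 1.94. The Rubisco small subunit genes RBCS1B and RBCS2B rose by 1.44 and 1.05. Among lower genes were PETE1 (−0.63), a plastocyanin, PSBP-2 (−0.39), the kinase gene STN8 (−0.10) and ALB3 (−0.08), whose product inserts antenna proteins into thylakoids.

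The spread between lines was compared as the mean absolute deviation from the group median. It differed for PSBS alone, at 0.123 log2 units in light and 0.242 in dark (difference −0.12, adjusted p 0.00654 by limma), against 1.79% of all genes. Lines lay closer to each other in PSBS in light than in dark. With the block 4 more members were called (LHCB2.1, PSAD1, PSAG and PSAH1), and under median-of-ratios scaling, a rescaling of libraries by their typical gene, 0 were (5 at an unadjusted p, limma). The difference for PSBS was then −0.07 with an adjusted p of 0.313.

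Lines differed from each other in most members. A line effect was called for 36 of 40 (90%), against 83.9% of all genes, by limma's moderated F-test. The 4 without a call were LHCB6, LHCB7, PSBS and PSAH2, which all rose by at least 0.5 log2 units in light. The intraclass correlation of a line's light and dark library was at most 0.10 in these 4. It was above 0.9 in 10 members (25%), against 12.1% of all genes, with a median of 0.62 over members and 0.49 over all genes. The highest were PSAE1 (0.98), LHCA6 (0.97), PSAD1 (0.96), LHCB5 (0.96) and PSAL (0.96).

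The parents, with 1 library per condition and no test, differed in several of the same genes. By at least 1 log2 unit in both conditions, 9 members were lower in Tnz-1 (22.5%, against 14.8% of all genes) and 2 were higher (5%, against 7.13%). The lower ones were LHCA5, LHCA6, LHCB1.3, LHCB2.3, LHCB5, PSAD1, PSAE1, PSAE2 and PSAG, and the higher ones LHCB2.1 and PSAL. The Tnz-1 libraries held 11614 TPM of seed storage transcripts in light and 13679 TPM in dark, against 203 and 299 TPM in Ws-2, and the part of this in the parental differences was not tested.

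PSAE1 was listed at 0 TPM in light and 15.3 TPM in dark in Tnz-1, against 2301 and 2286 TPM in Ws-2. PSAD1 had 82.4 TPM in light and 160.5 TPM in dark in Tnz-1, against 3010 and 2193 TPM in Ws-2. These products sit side by side on the stromal face of photosystem I. LHCA6 had 35.4 and 24 TPM in Tnz-1, against 275 and 177 TPM in Ws-2. PSAL ran the other way, with 3355 and 3098 TPM in Tnz-1, against 783 and 1203 TPM in Ws-2. LHCB2.3 had 2.3 and 0.16 TPM in Tnz-1, against 11.1 and 7.90 TPM in Ws-2.

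The light change differed in sign between the parents for 15 members. Of the 29 members called in the lines, 26 changed in the same direction in Tnz-1 and 19 in Ws-2. How often this holds over all genes was not counted, so these counts are no result about the members as a group. LHCB1.1 changed by 0.08 log2 units in Tnz-1 and by −2.17 in Ws-2, and the Tnz-1 value lay above 64 of 65 lines. PSBS rose by 0.66 log2 units in Tnz-1 and by 1.36 in Ws-2, and the Tnz-1 value lay above only 2 lines.

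To ask whether a level went with the parental allele at the gene, each line was called Tnz-1 or Ws-2 at 514 marker genes, which were at or below 0.5 TPM in one parent and at or above 5 TPM in the other. The calls rest on the expression of other genes in the same libraries and are no genotyping. Some marker genes also stand in the tissue lists above. The root gene PRP3 was a marker for LHCA2, and the seed storage gene CRU2 was a marker for PSAD2. Whether calls there followed tissue content was not tested. Of the markers 367 were off in Tnz-1 and 147 in Ws-2, neighbouring markers gave equal calls in 91.1% of cases, and lines held 26.7% ± 14.3 Tnz-1 calls. A member was tested against the share of Tnz-1 calls at its 2 nearest markers on each side. The nearest lay at a median of 126 kb and 194 kb, and at most at 3893 kb and 2153 kb. PSAD2, LHCB7 and PSBO1 had only 1 marker on a side. LHCB4.1 and PSBR had no marker on one side and were not tested. Members that lie close together, such as the 3 LHCB1 genes of chromosome 1, share their markers.

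By this measure 15 of 38 members were lower with Tnz-1 calls (39.5%, against 29.5% of all genes) and 6 were higher (15.8%, against 11.8%), at an adjusted p under 0.05 and a difference of at least 0.5 log2 units. At 1 log2 unit, 10 were lower and 2 higher, against 18.9% and 6.2% of all genes. The sign was that of the parents in 20 of the 21 called members, and the exception was LHCB1.1. All 11 members that stood out between the parents were called in the same direction, and all 10 with an intraclass correlation above 0.9 had a call. How often such agreement holds over all genes was not counted, so it is no result about the members as a group. Lines with only Tnz-1 calls and lines with only Ws-2 calls did not overlap in 10 of 33 members with at least 2 lines of each (30.3%, against 25.5% of all genes). The shares given beside those of all genes were near them, so they too are no result about the members as a group.

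**Figure D3:**
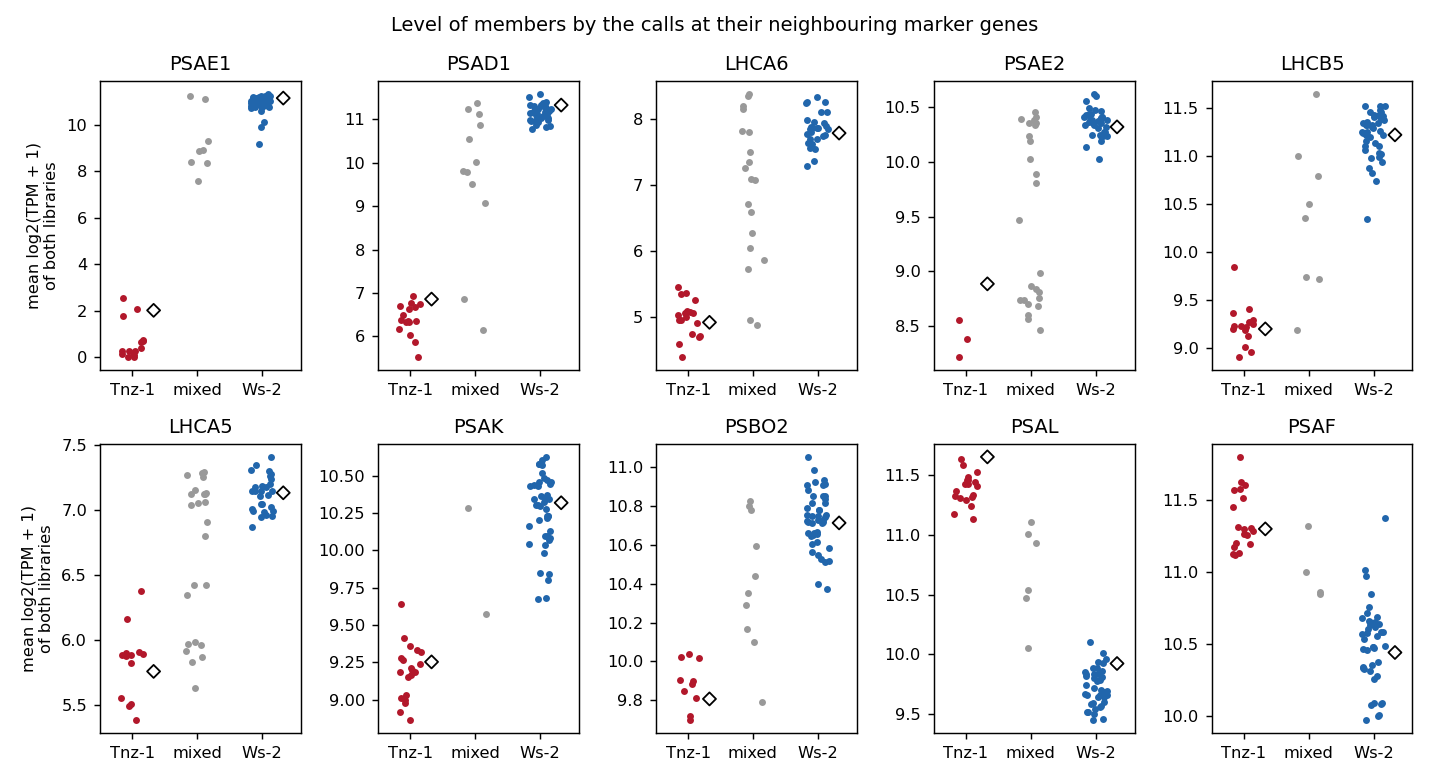
Mean log2(TPM + 1) of the light and dark library of each line for 10 members, by the calls at the 4 neighbouring marker genes: all Tnz-1 (red), mixed (grey) or all Ws-2 (blue), with the parent's own mean as an open diamond. In all panels but that of PSAF the lines with 4 Tnz-1 calls and with 4 Ws-2 calls do not overlap, and PSAL and PSAF are higher with Tnz-1.

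PSAE1 (AT4G28750, chr4:14202758-14204061, minus strand) showed the widest difference. As the mean of both libraries, it had 0 to 7.06 TPM with a median of 0.215 TPM in 15 lines with 4 Tnz-1 calls, against 598 to 2589 TPM with a median of 2084 TPM in 42 lines with 4 Ws-2 calls. The fitted difference was −10.13 log2 units (SE 0.249, adjusted p 3.21e-46 by limma), a number that depends on the added 1 TPM. PSAE1 was listed at 0 in 11 of the 130 line libraries. An antisense gene overlaps 436 of its bases. Its nearest marker gene, AT4G28740, overlaps it by 9 bases on the other strand, so that marker call is not fully separate from PSAE1. How reads that differ from the reference accession were assigned is not given in the sources used here.

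PSAD1 (AT4G02770, chr4:1229031-1230164, minus strand) had 52.2 to 127 TPM with a median of 83.4 TPM in 16 lines with Tnz-1 calls, against 1755 to 3074.7 TPM with a median of 2321 TPM in 37 lines with Ws-2 calls. The groups did not overlap and differed by −4.73 log2 units (SE 0.167, adjusted p 4.1e-37 by limma). The summed medians of root, seed storage and green markers were 246, 157 and 35605 TPM in lines with Tnz-1 calls at PSAD1. With Ws-2 calls the medians were 239, 431 and 35705 TPM. For calls at PSAE1 the medians were 214, 523 and 34774 TPM with Tnz-1, and 247, 344 and 35612 TPM with Ws-2. Ranges overlapped in each case, and the part of these markers in the differences was not tested.

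Both genes have a paralog elsewhere. PSAD2 was at 285 ± 51.8 TPM in light and 245 ± 49.9 TPM in dark in lines with Tnz-1 calls at PSAD1, against 311 ± 67.7 and 269 ± 45.1 TPM in lines with Ws-2 calls. The PSAD sum therefore followed PSAD1, with a median of 355 TPM in light and 325 TPM in dark in lines with Tnz-1 calls, against 3056 and 2162 TPM in lines with Ws-2 calls. PSAE2 (AT2G20260), on chromosome 2, was itself lower with Tnz-1. It had 300.3 to 378 TPM in 3 lines with Tnz-1 calls at its own markers, against 1067 to 1577 TPM in 37 lines with Ws-2 calls (difference −1.98 log2 units, adjusted p 2.31e-28 by limma).

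Taking the calls at both PSAE genes, the sum of PSAE1 and PSAE2 had a median of 332 TPM in light and 302 TPM in dark in 2 lines with Tnz-1 calls at both. It was 1511 and 1179 TPM in 9 lines with Tnz-1 at PSAE1 and Ws-2 at PSAE2. The 1 line with Ws-2 at PSAE1 and Tnz-1 at PSAE2 had 2467 and 1806 TPM. The 23 lines with Ws-2 at both had 3905 and 3048 TPM. Between the lowest and the highest of these groups no library overlapped, and the parents, at 437 and 526 TPM in Tnz-1 against 3547 and 3591 TPM in Ws-2, stood near the ends.

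**Figure D4:**
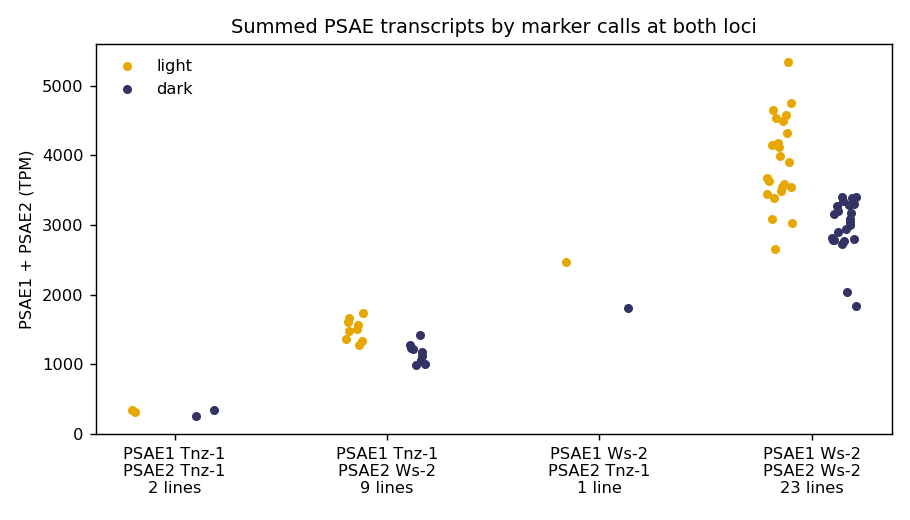
Summed TPM of PSAE1 and PSAE2 in the light (yellow) and dark (blue) library of lines, by marker calls at both genes, with the number of lines under each group. The 2 lines with Tnz-1 calls at both genes lie at 318 to 345 TPM in light, against 2658 to 5347 TPM in the 23 lines with Ws-2 calls at both.

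Of the antenna genes, LHCA6 (chr1:6612630-6613972, plus strand) had 20.7 to 43.1 TPM with a median of 32.5 TPM in 18 lines with Tnz-1 calls, against 166 to 341 TPM with a median of 246 TPM in 28 lines with Ws-2 calls. The groups did not overlap, and the difference was −2.94 log2 units (SE 0.141, adjusted p 1.23e-29 by limma). LHCA5, its partner at the NDH complex, was also lower with Tnz-1 at its own markers, with a median of 58.1 TPM in 13 lines, against 140 TPM in 28 lines with Ws-2 calls (difference −1.38). LHCB5 (CP26), for which no light call was made, had a median of 602 TPM in 15 lines with Tnz-1 calls, against 2476 TPM in 42 lines with Ws-2 calls (difference −1.95 log2 units, SE 0.106, adjusted p 1.16e-26 by limma).

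LHCB1.3 was lower with Tnz-1 by 1.02 log2 units, with a median of 3134 TPM in 20 lines with Tnz-1 calls, against 6558 TPM in 44 lines with Ws-2 calls. At the same markers LHCB1.1 was higher with Tnz-1 by 0.67 log2 units (adjusted p 0.0106 by limma), with a median of 204 TPM in lines with Tnz-1 calls and 113 TPM in lines with Ws-2 calls, and LHCB1.2 was not called. The groups overlapped for all 3. LHCB1.4, LHCB2.3 and LHCA1 were lower with Tnz-1 by 0.67, 1.22 and 0.86, with overlapping groups.

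Further photosystem I subunits differed by call. PSAG, a contact of the antenna, was lower by 1.79 log2 units, but only 1 line had 4 Tnz-1 calls there, at 579 TPM, against a median of 1447 TPM in 45 lines with Ws-2 calls. PSAK, the second such contact, was lower by 1.07 in groups that did not overlap, with a median of 585 TPM in 20 lines with Tnz-1 calls, against 1267 TPM in 43 lines with Ws-2 calls. PSAL (AT4G12800), which anchors PSAH, was the clearest higher member, with 2253 to 3195 TPM and a median of 2730 TPM in 19 lines with Tnz-1 calls, against 700.1 to 1103 TPM and a median of 834 TPM in 40 lines with Ws-2 calls. Its groups did not overlap and differed by 1.65 log2 units (SE 0.0671, adjusted p 1.59e-33 by limma). PSAF was higher by 0.87 with overlapping groups.

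In photosystem II, PSBO2 (AT3G50820), the less abundant copy of the manganese-stabilising subunit, was lower with Tnz-1 by 0.87 log2 units in groups that did not overlap, with a median of 952 TPM in 10 lines with Tnz-1 calls and 1715 TPM in 45 lines with Ws-2 calls. PSBO1, the major copy, was not called (difference 0.02, SE 0.0478). PSBQ1 and PSBQ2 were lower with Tnz-1 by 0.95 and 0.52. The remaining higher members, LHCB2.1 (2.44), LHCB2.2 (0.63) and LHCA2 (0.50), each had only 2 lines with 4 Tnz-1 calls. LHCB2.1 had 4.37 and 6.45 TPM in those lines, against 0.09 to 2.02 TPM in 43 lines with Ws-2 calls. With PSAG these were the 4 called members with fewer than 3 such lines. Among the 10 members that changed by at least 0.5 log2 units in light, LHCA6, LHCB1.1, LHCB1.4, LHCB2.2 and LHCB2.3 had a local call. PSBS, LHCB4.3, LHCB6, LHCB7 and PSAH2 had none, with differences from −0.09 to 0.22 log2 units. The nearest marker to the left of PSBS was 3893 kb away, and LHCB6 had 0 lines with 4 Tnz-1 calls. For LHCB6 the lack of a call therefore says little. PSBS had its nearest right marker at 41.9 kb, with 10 lines of 4 Tnz-1 calls and 28 of 4 Ws-2 calls. Its difference was 0.05 log2 units (SE 0.063), a value limited by the distant left marker.

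The light change itself differed between the calls in 8 of 38 members (21.1%, against 11% of all genes). PSAD1 fell in light with Tnz-1 calls and rose with Ws-2 calls: the change ran from −1.51 to 1.6 log2 units with a median of −0.66 in 16 lines with Tnz-1 calls, against −0.12 to 0.81 with a median of 0.50 in 37 lines with Ws-2 calls (difference −0.90, SE 0.12, adjusted p 9.8e-08 by limma). The ranges overlapped. LHCA5 had a median change of −0.14 in lines with Tnz-1 calls and 0.22 in lines with Ws-2 calls, a difference of −0.26 (adjusted p 0.00067 by limma). LHCA1 had a median change of −0.33 with Tnz-1 calls and −0.07 with Ws-2 calls. The calls of PSAD1 and LHCA5 held under every alternative tried, and those of the other 6 were each lost under at least 1.

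**Figure D5:**
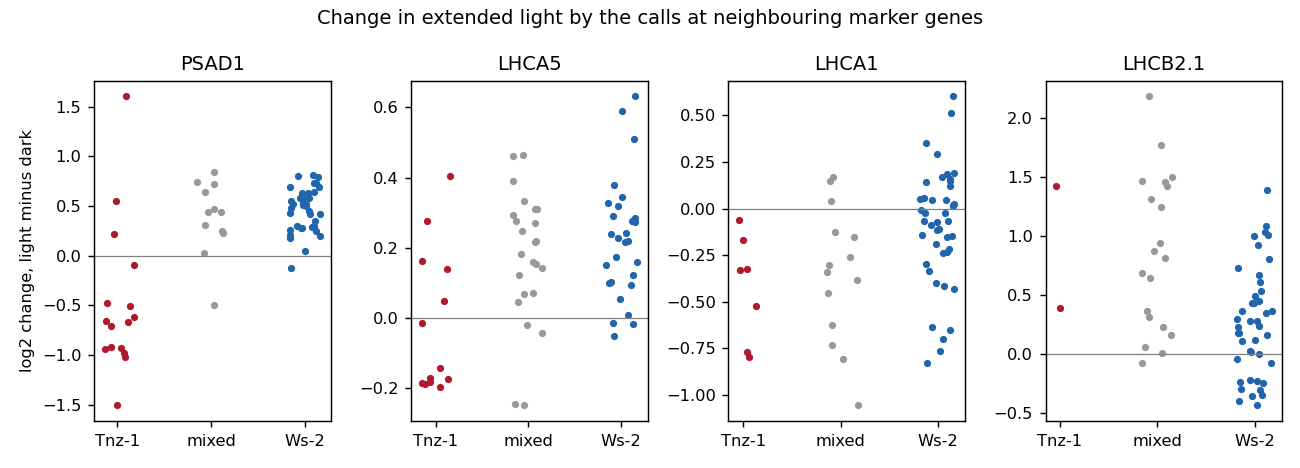
Log2 change, light minus dark, of PSAD1, LHCA5, LHCA1 and LHCB2.1 in each line, by the calls at the 4 neighbouring marker genes: all Tnz-1 (red), mixed (grey) or all Ws-2 (blue). PSAD1 has a median change of −0.66 with Tnz-1 calls and 0.50 with Ws-2 calls, and LHCB2.1 has only 2 lines with Tnz-1 calls.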

How the data were processed

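The authors deposited 1 table of TPM for 28775 genes in 134 libraries. Per the submitters' processing notes, cutadapt 3.4, Salmon 1.6.0, GATK and the build TAIR10 were used, and the role of each and the treatment of reads shared by copies or differing between accessions are not given in the sources used here. Libraries were directional and poly(A)-selected, per the labels' protocols. The columns sum to 1000000 within rounding, so depth is unknown.

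Tests used log2(TPM + 1), so that a log2 change understates the change of low genes, for 18111 genes with a mean of at least 1 TPM over the lines. The light change, the line effect (moderated F-test) and the spread were fitted with limma 3.58.1 in R 4.3.3, with Benjamini-Hochberg adjustment over all genes. The local test was a least-squares fit of line means, or of light minus dark, on the Tnz-1 share of marker calls. It used up to 4 marker calls per gene and limma's moderated variance, over 16995 genes. All but the F-test were two-sided. The light, line, spread and local level tests were tried on simulated data, and the test of the light change by call was not. For the light test the simulated lines had no line effect, unlike the data. All tests compare lines, whose spread may also hold technical differences. The line number pairs the light and dark library of an inbred line, and their deviations from the group means correlated at 0.492 to 0.886 (median 0.772). Parents had no replicates and no test. Sequences, positions and coding identities came from TAIR10.1, which held 28009 of the identifiers.

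The members, lists and tests were chosen with earlier results of these data known. Named in full were, per complex, the highest and lowest light change, the 5 highest intraclass correlations and parental differences, and every member with a local, response or spread call. Of the photosynthesis list, the 4 largest changes each way that passed the adjusted p at a mean of at least 5 TPM were named.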

Additional observations from a re-analysis of the deposited data

Results flagged for a closer look

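The light change differed between Tnz-1 and Ws-2 calls at the neighbouring markers in 8 members, by a test of the difference itself (limma, adjusted over all genes). The difference, Tnz-1 minus Ws-2, was −0.90 log2 units for PSAD1, −0.26 for LHCA5 and −0.42 for LHCA1 (adjusted p 0.0136). PSAE1 gave −0.78 (adjusted p 0.00826). In its 15 lines with Tnz-1 calls the mean of both libraries was at most 7.06 TPM, against a median of 2084 TPM in lines with Ws-2 calls. PSAE2 gave −0.32, although its 3 lines with Tnz-1 calls had a median change of 0.35 and lines with Ws-2 calls one of 0.36. The 25 lines with mixed calls also entered the fit. PSBQ2 gave −0.25, with a median change of −0.19 with Tnz-1 calls and 0.12 with Ws-2 calls. LHCB2.1 gave 0.96 and PSAG 0.37, with 2 lines and 1 line of 4 Tnz-1 calls. In LHCB2.1 these lines changed by 0.39 and 1.43, against a median of 0.24 in lines with Ws-2 calls.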

How the results depend on the processing

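The count of higher members ran from 18 to 28 and of lower members from 6 to 8 over pseudocounts, filters, scaling, line-number ranges and the replicate block (28 and 8), and fell to 9 and 1 at an absolute change of at least 0.5. In the light test the line-number term allowed another level per range and no other light change, so it cannot show a light change that differs by range. A line effect was called for 34 to 36 members. Local calls were 19 to 21, and 12 at a difference of at least 1. Response calls were 6 to 8, and 5 with the line's share of Tnz-1 calls as a term, an alternative chosen after seeing the data, which lost LHCA1, PSAE2 and PSBQ2. A pseudocount of 0.1 lost PSAE1 and LHCB2.1, 1 marker per side LHCB2.1, scaling PSAE2 and PSAG, line-number ranges PSBQ2, and markers at or above 20 TPM lost PSAG and added LHCB2.2. Spread calls were 0 under median-of-ratios scaling and 5 with the replicate block. Parental differences were 4 at 2 log2 units. Light calls of LHCB1.5, PSAE2, PSBQ1 and PSBR were lost under median-of-ratios scaling, and those of LHCA1, PSAE2 and PSBQ1 with no filter. Local calls of LHCA2 were lost under 4 alternatives and those of LHCB2.2 and PSBQ2 under 1 each. Signs reversed only in differences that were never called, and the cause was not tested. Under median-of-ratios scaling, light changes became −0.00226 (LHCB1.3), −0.00682 (LHCB5) and −0.0292 (PSBQ2), and the local difference of PSAO −0.0154 (−0.00779 with markers at or above 20 TPM). With line-number ranges as a term, local differences became 0.0297 (LHCA4) and 0.0142 (LHCB1.2), and response differences 0.00465 (LHCA3), 0.575 (LHCB4.2), 0.0344 (LHCB6), 0.0272 (PSBS) and 0.00433 (PSAF). With the share as a term, local differences became 0.0944 (LHCA4) and 0.0802 (LHCB1.2), and response differences 0.0175 (LHCA4), 0.0711 (LHCB6), 0.0988 (PSBS) and 0.0232 (PSAH2). The response difference was 0.0110 for LHCB7 with 1 marker per side and −0.0138 for PSAH1 with markers at or above 20 TPM. Calls for low genes such as LHCB2.1, LHCB2.3 and LHCB4.2 are limited by unknown depth.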
